A study of Mus musculus with 6 samples.

Results

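The beta-galactosidase genes of mouse, Glb1, Glb1l, Glb1l2 and Glb1l3, were followed in retinas with Dicer1 deleted in rods and in control retinas. The members were taken by gene name, 4 of the 22731 gene rows of the deposited table, and all 4 were among the 12599 genes tested. The family was chosen by the measured RPKM of Glb1l3, which was lower in the conditional knockout (cKO) in these same libraries, so the difference of Glb1l3 is described here and not used as evidence. Both groups carried Dicerfl/fl alleles on a mixed C57BL/6J and SJL background. Mice of the cKO group were iCre75+, and controls were iCre75-, so Cre expression and loss of Dicer1 cannot be told apart. The iCre75 transgene expresses Cre recombinase in rods, and the other cells of the retina keep their Dicer1 alleles. Retinas were collected between 8 and 10 in the morning from animals 4 weeks old, and each of the 3 libraries per group was made from pooled RNA of 4 mice. Values are RPKM, reads scaled to the length of the gene model and to the size of the library, which allows levels of different genes to be compared per length.

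Lysosomal beta-galactosidase, the product of Glb1, removes terminal galactose in beta linkage from the ganglioside GM1, from keratan sulfate and from glycoproteins. It works in a lysosomal complex with the protective protein cathepsin A (Ctsa) and the sialidase Neu1. Its loss in humans causes the storage disease GM1 gangliosidosis, in which retinal ganglion cells fill with lipid. Glb1l, Glb1l2 and Glb1l3 are named for their sequence likeness to Glb1 and belong to the same family of glycoside hydrolases.

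The libraries held between 12344608 and 32954691 reads in genes, worked back from the RPKM steps. Dicer1, the targeted gene, had 8.02, 7.06 and 7.90 RPKM in cKO replicates 2, 3 and 4, against 8.48, 8.77 and 8.33 RPKM in control replicates 1, 2 and 3. That is 89.9% of the control mean, and the difference did not pass (limma adjusted p = 0.931). A gene-level value also counts exons outside the floxed part and cells that keep the gene, and their part was not tested. The summed level of 10 rod markers, which checks the labelled tissue, was 23033 to 25259 RPKM in cKO libraries and 24174 to 28024 RPKM in control libraries. In bulk retina, fewer cells of a type and less RNA per cell cannot be told apart.

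Glb1l3 and Glb1l2 are neighbours on chromosome 9, both on the minus strand. In GENCODE M21 on GRCm38, which is not the build behind the deposited values, Glb1l3 spans 26817953 to 26860890 and Glb1l2 spans 26763044 to 26806468, with a gap of 11484 bases. Glb1 lies far along the same chromosome (114401076 to 114474898, plus strand), and Glb1l on chromosome 1 (75198236 to 75210813, minus strand). The coding sequence of Glb1l3 (1989 bases) was identical to that of Glb1l2 at 64.4% of 1918 aligned positions, to that of Glb1 at 59.6% of 1811 and to that of Glb1l at 58.6% of 1831. The longest stretch shared letter for letter by the coding sequences of Glb1l3 and Glb1l2 was 19 bases, and for the other pairs it was 11 to 17 bases. The gene model lengths that the deposited values imply were 2465 bases for Glb1l3, 3686 for Glb1l2, 3451 for Glb1l and 2353 for Glb1.

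Sequences around the start sites of Glb1l3, Glb1l and Glb1 are shown because these 3 members differ there, and that of Glb1l2 was not examined. Each is 300 bases from the RefSeq table for GRCm38.p6, 5′ to 3′ on the gene's strand, 250 before the start site and 50 after it, and capitals mark CG dinucleotides. The windows lie at chr9:26860774-26861073 (minus strand) for Glb1l3, chr1:75210706-75211005 (minus strand) for Glb1l and chr9:114400828-114401127 (plus strand) for Glb1.
Glb1l3: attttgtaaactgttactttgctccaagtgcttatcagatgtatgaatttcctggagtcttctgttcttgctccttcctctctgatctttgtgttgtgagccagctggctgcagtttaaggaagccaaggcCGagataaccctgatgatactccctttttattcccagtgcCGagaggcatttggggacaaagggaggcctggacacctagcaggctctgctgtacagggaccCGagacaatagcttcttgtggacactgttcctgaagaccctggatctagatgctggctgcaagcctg
Glb1l: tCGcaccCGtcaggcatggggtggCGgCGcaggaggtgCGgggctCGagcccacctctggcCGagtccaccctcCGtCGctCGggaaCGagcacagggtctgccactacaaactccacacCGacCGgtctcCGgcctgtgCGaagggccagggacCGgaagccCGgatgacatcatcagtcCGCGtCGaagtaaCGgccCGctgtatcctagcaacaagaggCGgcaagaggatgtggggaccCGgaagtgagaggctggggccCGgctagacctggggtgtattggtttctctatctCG
Glb1: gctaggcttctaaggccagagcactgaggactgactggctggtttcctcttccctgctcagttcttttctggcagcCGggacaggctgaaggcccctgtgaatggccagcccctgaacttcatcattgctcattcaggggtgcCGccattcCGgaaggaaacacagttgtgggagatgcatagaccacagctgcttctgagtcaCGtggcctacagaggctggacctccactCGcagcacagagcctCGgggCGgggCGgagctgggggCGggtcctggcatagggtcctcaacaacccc

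The Glb1l3 window held 3 CG dinucleotides and was 49.3% G and C, the Glb1l window held 26 and was 65.3% G and C, and the Glb1 window held 9 and was 60.7% G and C. Over 32851 windows of this length in the table, the median was 7 CG dinucleotides, and 23.3% had fewer than the Glb1l3 window against 83.1% with fewer than the Glb1l window. The letters CACGTG, the core of the CLEAR element through which TFEB acts on lysosomal genes, occurred in the Glb1 window, beginning 48 bases before the start site, and not in the windows of Glb1l3 or Glb1l. CACGTG reads the same on both strands and was in 7.15% of all windows. The core letters bound by CRX, GATTA or TAATC, were in 22.0% of all windows, and part of the NRL site, TGCTGA or TCAGCA, was in 19.5%. Neither was in any of the 3 windows.

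Since Dicer1 makes microRNAs, the longest annotated 3′ untranslated regions of the members were searched for 7-base matches to the seeds (bases 2 to 8) of 11 microRNAs known from retina or brain. Glb1l3, whose region is 228 bases long, and Glb1, whose region is 336 bases long, held no match. Glb1l (147 bases) held a match to miR-182, a microRNA abundant in photoreceptors, and Glb1l2 (1693 bases) held a match to miR-125b. Seeds in the microRNAs and the matching letters in the genes are in capitals, and the sites are given with their flanks, 5′ to 3′.
miR-182-5p: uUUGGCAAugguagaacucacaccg
site in Glb1l: cacagttttcTTGCCAAactttattat
miR-125b-5p: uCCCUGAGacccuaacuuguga
site in Glb1l2: aactagcaacCTCAGGGaatgaagggc
Of 11043 tested genes with such a region, 13.0% held the miR-182 letters and 16.2% held the miR-125b letters. The levels of these genes are given below, and a match by itself is a description of sequence.

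Glb1l3 was the member with the lowest level in every library, and it was lower in cKO retinas. It had 0.645, 0.622 and 0.965 RPKM in cKO replicates 2, 3 and 4, against 1.53, 1.56 and 1.84 RPKM in control replicates 1, 2 and 3. All 3 cKO values lay below all 3 control values, and cKO replicate 4 was the highest of its group. The mean was 0.744 ± 0.192 RPKM in cKO retinas and 1.64 ± 0.171 RPKM in control retinas (SD, n = 3 each), 45.3% of the control mean. Taking the smallest whole numbers that fit the RPKM steps, these values rest on 39, 55 and 36 reads in the cKO libraries and 130, 150 and 184 reads in the control libraries. Exact Poisson 95% intervals, which cover counting error only, were 0.676 to 1.34 RPKM for cKO replicate 4, the highest of its group, and 1.28 to 1.82 RPKM for control replicate 1, the lowest of its group, and they overlapped. That overlap depends on the read numbers of cKO replicate 4: at the next multiple, 72 reads, its interval would be 0.755 to 1.22 RPKM and would not reach that of control replicate 1. At that multiple every read number of the library would be even, while 51.7% are odd at the smallest. The intervals of cKO replicates 2 and 3, with upper ends of 0.882 and 0.810 RPKM, stayed below those of all 3 control libraries.

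**Figure D1:**
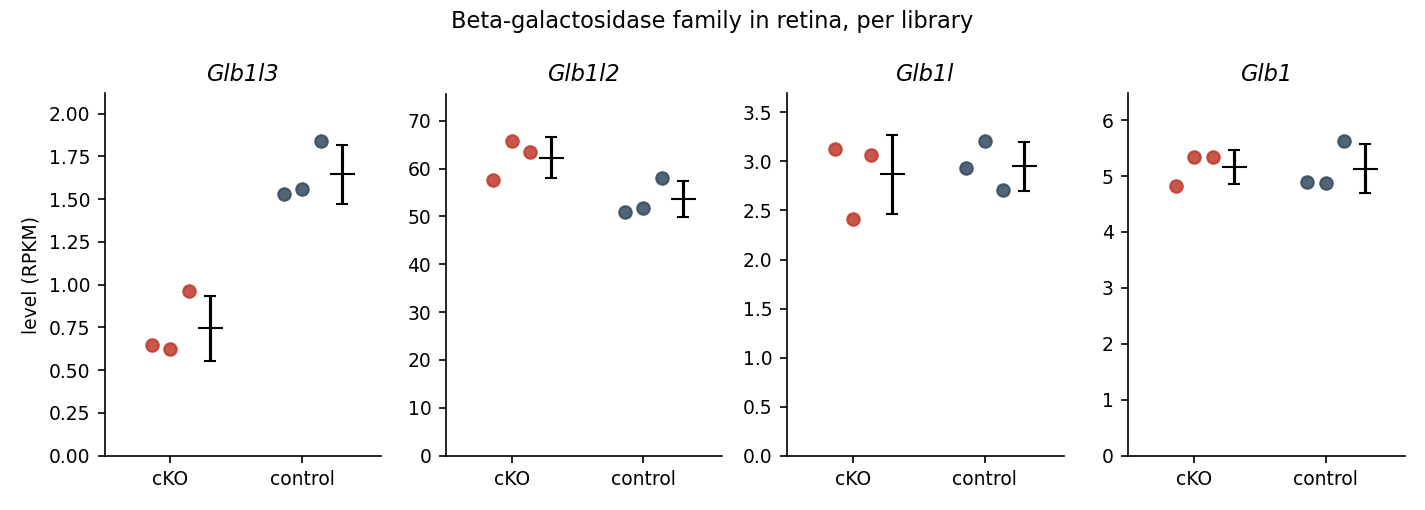
Level in RPKM (y axis, from 0, a separate scale per gene) of the 4 members in each cKO library (red, left) and control library (blue, right), with the mean and SD beside the points. Glb1l3 lies at 0.622 to 0.965 RPKM in cKO libraries and 1.53 to 1.84 RPKM in control libraries, and the groups overlap for the other members.

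The limma log2 fold change of Glb1l3, cKO over control, was −0.79 ± 0.13 (SE) after 0.5 was added to each RPKM value before taking log2, an offset that shrinks the fold of so low a gene. The gene was 13th from the lowest of 12599 fold changes, and over all genes its adjusted p was 0.282, short of the threshold of 0.05. Since Glb1l3 was picked for this difference, the p is given only to show that it did not pass. Glb1l3 met the filter of a mean of 1 RPKM through the control group, as its cKO mean was below 1. With limma voom on the recovered reads, which adds little to low values, the log2 fold change was −1.24 (adjusted p = 0.0805). The direction was negative in all 13 alternatives fitted without pairing the libraries, and none of those 13 passed. With every cKO value below every control value, the direction could hardly come out otherwise, so nothing is read from it.

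**Figure D2:**
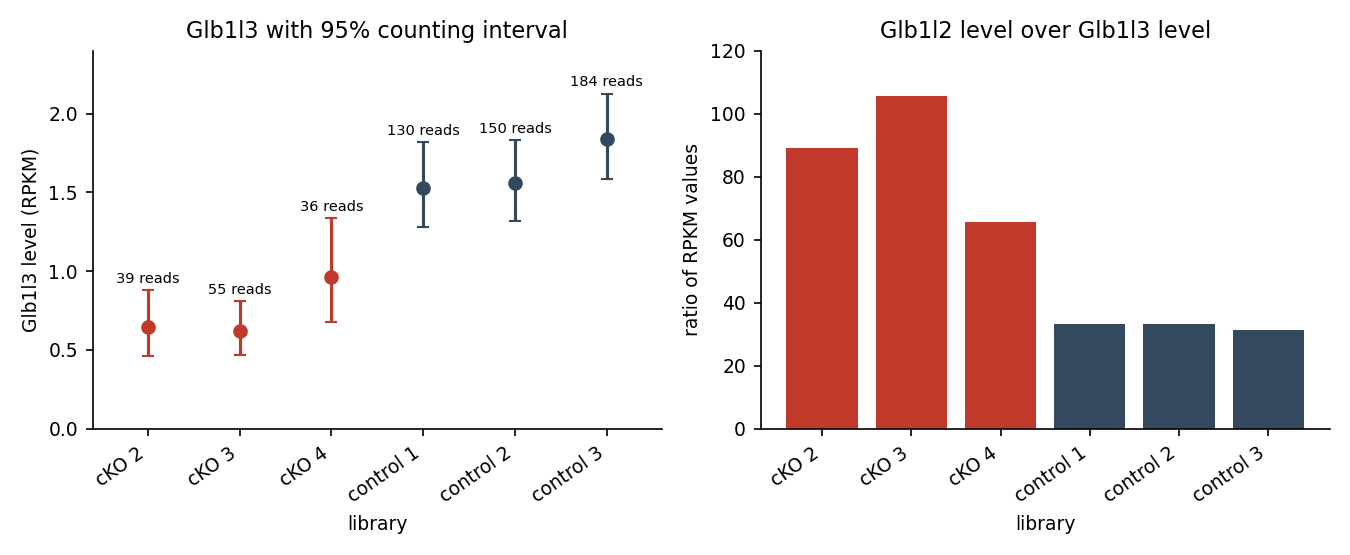
Left, Glb1l3 level in RPKM per library with its exact Poisson 95% interval and its number of reads. Right, the Glb1l2 level divided by the Glb1l3 level in the same library, at 65.7 to 106 in cKO libraries (red) and 31.5 to 33.3 in control libraries (blue).

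Glb1l2, the gene next to Glb1l3, was by far the most abundant member and had somewhat higher values in cKO retinas that did not pass the test. It had 57.6, 65.8 and 63.4 RPKM in cKO replicates 2, 3 and 4, against 51.0, 51.8 and 57.9 RPKM in control replicates 1, 2 and 3. The groups overlapped, as cKO replicate 2 lay just under control replicate 3. The mean was 62.3 ± 4.23 RPKM in cKO retinas and 53.6 ± 3.79 RPKM in control retinas (SD, n = 3 each). Its log2 fold change, cKO over control, came to 0.22 ± 0.10 (SE, limma adjusted p = 0.875), with a 95% interval of −0.0048 to 0.44, and the exact two-sided permutation p was 0.2, where 3 against 3 libraries cannot go below 0.1. With 3536 to 8695 reads per library, counting error was small beside the spread between libraries.

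Glb1, the lysosomal enzyme gene, had nearly the same mean in both groups. It had 4.82, 5.35 and 5.34 RPKM in cKO replicates 2, 3 and 4, against 4.89, 4.87 and 5.63 RPKM in control replicates 1, 2 and 3. The cKO values lay on both sides of the lower control values and below the highest. The mean was 5.17 ± 0.302 RPKM in cKO retinas and 5.13 ± 0.434 RPKM in control retinas (SD, n = 3 each). For Glb1 the log2 fold change came to 0.011 ± 0.088 (SE, limma adjusted p = 0.997; exact two-sided permutation p = 1), and its 95% interval of −0.19 to 0.21 corresponds to between 0.875 and 1.16 times the control level. Tmppe, a gene on the same strand that shares 6172 bases of its span with Glb1, averaged 1.26 RPKM in both groups, and reads from the shared part could be counted for either gene.

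Glb1l also overlapped between groups. It had 3.13, 2.41 and 3.06 RPKM in cKO replicates 2, 3 and 4, against 2.93, 3.21 and 2.71 RPKM in control replicates 1, 2 and 3. The lowest value of all 6 was that of cKO replicate 3, and the highest was that of control replicate 2. The mean was 2.87 ± 0.399 RPKM in cKO retinas and 2.95 ± 0.251 RPKM in control retinas (SD, n = 3 each), with a log2 fold change of −0.039 ± 0.11 (SE, limma adjusted p = 0.997; exact two-sided permutation p = 0.8). Its 95% interval, −0.30 to 0.22, corresponds to between 0.813 and 1.16 times the control level. Glb1l, which holds the miR-182 letters shown above, shares 1152 bases of its span with Ankzf1 on the opposite strand, and the library protocol does not mark strand. Ankzf1 averaged 10.9 ± 1.82 RPKM in cKO retinas and 9.99 ± 0.989 RPKM in control retinas (SD, n = 3 each; limma adjusted p = 0.997).

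In all, 0 of 4 members passed an adjusted p of 0.05 in limma, where the background over all genes tested was 0.00794%, a single gene, Prm1. At an unadjusted p under 0.05 there was 1 of 4, Glb1l3, and 5.71% of all genes. The cKO values lay below all control values for 1 of 4 members, again Glb1l3, and for 5.78% of all genes, and above all control values for 0 of 4 members and 5.91% of all genes. Nothing is read from these counts, since the family was chosen with this difference known. The members' median log2 fold change was −0.014, against −0.0050 over all genes tested.

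The order of the levels was the same in all 6 libraries: Glb1l2 first, then Glb1, Glb1l and Glb1l3. Neighbours in that order were apart in every library, the closest being Glb1l and Glb1l3 in control replicate 3, at 2.71 and 1.84 RPKM. Levels and shares depend on the length models. The implied model of Glb1l, 3451 bases, is longer than its only complete protein-coding transcript in GENCODE M21, 2339 bases, and a shorter model would raise its RPKM. Glb1l2 made up 87.0%, 88.7% and 87.1% of the summed RPKM of the family in cKO replicates 2, 3 and 4, against 84.5%, 84.3% and 85.0% in control replicates 1, 2 and 3. Glb1l3 made up 0.975%, 0.839% and 1.33% in the same cKO libraries, against 2.54%, 2.54% and 2.70% in the control libraries. The family as a whole summed to 71.0 ± 4.28 RPKM in cKO retinas and 63.3 ± 4.20 RPKM in control retinas (SD, n = 3 each). Without Glb1l2, the sum was 8.78 ± 0.520 RPKM in cKO retinas and 9.73 ± 0.424 RPKM in control retinas (SD, n = 3 each). That smaller sum includes Glb1l3, which was picked for its low cKO values. The ratio of Glb1l2 to Glb1l3 in the same library was 89.2, 106 and 65.7 in cKO replicates 2, 3 and 4, against 33.3, 33.2 and 31.5 in control replicates 1, 2 and 3. Depth cancels from the value of a ratio within a library, but not from its precision. The control ratios were close to each other while the cKO ratios were spread. The Glb1l3 values below these ratios rest on 39, 55 and 36 reads in cKO libraries and 130, 150 and 184 in control libraries. The part of counting error in the spread was not tested.

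Over the 6 libraries, Pearson's r on log2(RPKM + 0.5) was −0.67 between Glb1l3 and Glb1l2, 0.22 between Glb1l3 and Glb1l, 0.13 between Glb1l3 and Glb1, and 0.64 between Glb1l2 and Glb1. These are descriptions over few libraries that share depth and group. The genes whose pattern was most like that of Glb1l3 were Tnfaip3 (r = 0.989), which restrains NF-kappaB signalling, Mynn (r = 0.984), a zinc finger protein gene, Ranbp6 (r = 0.981), of the importin family, Nfil3 (r = 0.981), a transcription factor gene, and Trpc1 (r = 0.979), a cation channel gene. Tnfaip3 averaged 62.5 ± 4.58 RPKM in cKO retinas and 76.0 ± 3.59 RPKM in control retinas, and Nfil3 averaged 8.50 ± 0.943 and 11.4 ± 0.663 RPKM in cKO and control retinas (SD, n = 3 each). The cKO means of the 5 genes were 74.6% to 82.2% of their control means, so the shape of the pattern was alike and its size was not. An r of at least 0.9 was reached by 150 of 12595 genes. In 143 of these the 3 cKO values lay below the 3 control values, against 5.78% of all genes tested. Likeness to Glb1l3 over these same libraries selects for that separation, so nothing is read from the count.

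**Figure D3:**
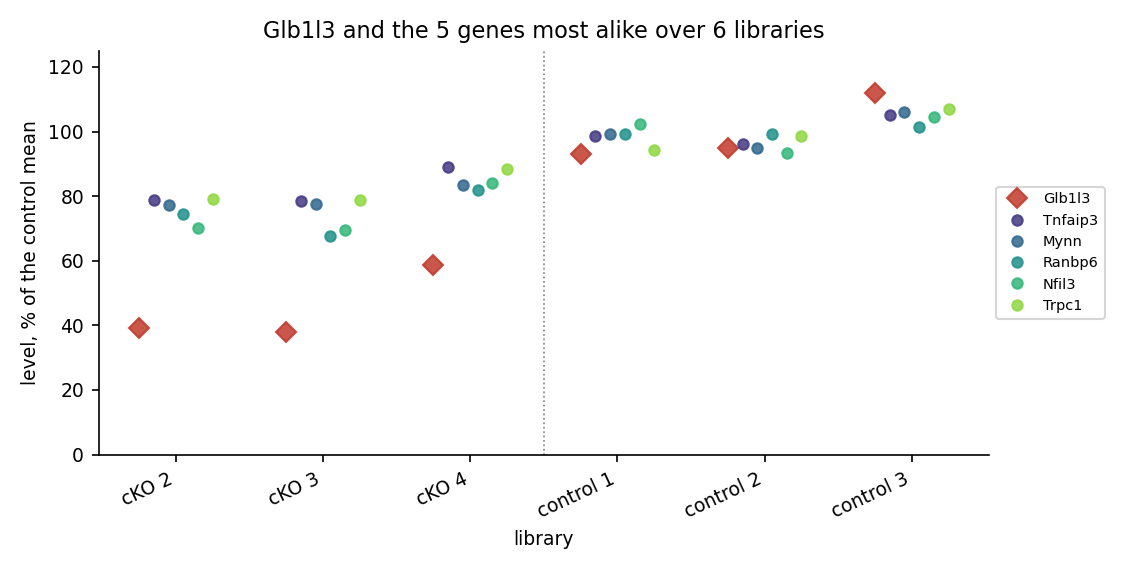
Level as a percentage of the control mean (y axis, from 0) in each library for Glb1l3 (red diamonds) and the 5 genes with the highest Pearson r to it. All 6 genes are lower in each cKO library than in any control library, and Glb1l3 is the furthest below. The 5 genes were picked for their likeness to Glb1l3 in these libraries, which selects for this pattern.

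The genes beside the members were looked at for a change shared along the chromosome. B3gat1, which makes the HNK-1 carbohydrate and whose span overlaps the end of Glb1l2 by 58 bases on the other strand, averaged 47.0 ± 4.26 RPKM in cKO retinas and 41.2 ± 4.47 RPKM in control retinas (SD, n = 3 each; limma adjusted p = 0.940). Gm1110, the gene on the other side of Glb1l3 at a gap of 18676 bases, averaged 0.112 ± 0.0645 RPKM in cKO retinas and 0.103 ± 0.00895 RPKM in control retinas (SD, n = 3 each) and was too low to be tested. Neither neighbour was lower in cKO retinas by its mean. For Gm1110 that mean rests on 4, 16 and 3 reads in cKO replicates 2, 3 and 4, and only replicate 3 lay above the control values. The control replicates 1, 2 and 3 had 9, 10 and 9 reads. A change shared along the chromosome was not tested. Beside Glb1l, Atg9a, an autophagy gene, had 42.6, 45.9 and 43.0 RPKM in cKO replicates 2, 3 and 4, against 37.4, 39.5 and 35.9 RPKM in control replicates 1, 2 and 3. Its groups did not overlap, and it did not pass (limma adjusted p = 0.849). Stk16 and Tuba4a, on the other side of Glb1l, and Crtap, beside Glb1, overlapped between groups, with log2 fold changes of 0.063, −0.090 and 0.057.

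The connected pathways were described from lists of 88 genes other than the members, of which 85 had a row and 79 were tested. Of these, 36 were higher and 43 lower in cKO retinas by their mean log2 values, against 48.4% higher and 51.6% lower among all genes tested, with a median log2 fold change of −0.014. By limma 0 of 79 passed over all genes, and 3 of 79 had an unadjusted p under 0.05, Hyal2, Pgm2 and B3galt2, where the share over all genes was 5.71%. The cKO values lay below all control values for 6 of 79 and above them for 4 of 79, beside 5.78% and 5.91% of all genes. Their log2 fold changes ran from −0.25 for Sgsh to 0.23 for B4galt2. Glb1l3 lay outside that range, but it was picked for its low cKO values, so nothing is read from this. Sgsh is named as the end of that range, after its value was seen.

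The partners of Glb1 in its lysosomal complex were close to their control levels. Ctsa, which protects the complex, averaged 26.2 ± 1.69 RPKM in cKO retinas and 24.8 ± 2.41 RPKM in control retinas. Neu1, the sialidase, averaged 20.1 ± 1.93 RPKM in cKO retinas and 18.8 ± 1.51 RPKM in control retinas, and Galns, the galactose-6-sulfatase, averaged 2.96 ± 0.471 and 2.98 ± 0.135 RPKM in cKO and control retinas (SD, n = 3 each; limma adjusted p = 0.997 for each of these 3). Among the 12 tested genes of ganglioside and galactosphingolipid breakdown, 8 were higher and 4 lower in cKO retinas by their mean log2 values. Psap, the precursor of the saposins that present these lipids to the enzymes, was the most abundant, at 373 ± 26.7 RPKM in cKO retinas and 333 ± 22.5 RPKM in control retinas (limma adjusted p = 0.957). Hexa, which acts on the ganglioside GM2, averaged 25.1 ± 1.68 RPKM in cKO retinas and 24.6 ± 2.02 RPKM in control retinas, and Smpd1, the acid sphingomyelinase, 86.9 ± 3.51 and 81.0 ± 5.44 RPKM in cKO and control retinas (limma adjusted p = 0.997 and 0.987).

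Glycosaminoglycan breakdown held 13 tested genes, 5 higher and 8 lower in cKO retinas by their mean log2 values. Hyal2, a hyaluronidase, had 6.84, 7.03 and 7.04 RPKM in cKO replicates 2, 3 and 4, against 8.56, 7.89 and 7.97 RPKM in control replicates 1, 2 and 3. Its groups did not overlap, and the difference on the log2 scale was −0.21 ± 0.072 (SE, limma adjusted p = 0.849). The 10 tested glycoprotein glycosidases were 6 higher and 4 lower by their mean log2 values.

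Of 22 tested genes of the lysosomal membrane, its proteases and its regulators, 8 were higher and 14 lower in cKO retinas by their mean log2 values. Ctsd, the cathepsin D gene, averaged 240.3 ± 25.4 RPKM in cKO retinas and 231 ± 5.54 RPKM in control retinas, and Lamp1, the membrane glycoprotein gene, 149 ± 15.2 and 129.6 ± 9.05 RPKM in cKO and control retinas (limma adjusted p = 0.997 and 0.931). The summed level of this list was 1137 to 1252 RPKM in cKO libraries and 1091 to 1256 RPKM in control libraries, so the groups overlapped.

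Free galactose enters metabolism through the Leloir pathway, of which 4 tested genes were higher and 4 lower in cKO retinas by their mean log2 values, though 7 were higher without control replicate 3. Galk1 and Galt, the kinase and uridylyltransferase of that pathway, averaged 12.5 and 18.6 RPKM in cKO retinas, against 11.8 and 19.3 RPKM in control retinas. Pgm2, a phosphoglucomutase, had 43.7, 46.5 and 50.6 RPKM in cKO replicates 2, 3 and 4, against 38.0, 38.3 and 43.3 RPKM in control replicates 1, 2 and 3. Its groups did not overlap, and the difference on the log2 scale was 0.23 ± 0.10 (SE, limma adjusted p = 0.871). Galactosyltransferases build linkages of the kind that beta-galactosidases open. Their list, which also holds the related genes B3galnt1, B4galnt1 and C1galt1c1, was 6 higher and 10 lower of 16 tested. B3galt2 had 7.73, 7.83 and 8.98 RPKM in cKO replicates 2, 3 and 4, against 9.84, 9.17 and 9.65 RPKM in control replicates 1, 2 and 3, with no overlap and a limma adjusted p of 0.865. B4galt2, the most abundant, averaged 36.7 ± 4.92 RPKM in cKO retinas and 31.2 ± 3.97 RPKM in control retinas (limma adjusted p = 0.939). Of other enzymes that open beta linkages, Gba2, a non-lysosomal glucosylceramidase, averaged 30.8 RPKM in cKO retinas and 29.7 RPKM in control retinas. In the same list, of the beta-glucosidase and klotho family, lactase (Lct), Lctl, Kl and Klb stayed under 1 RPKM in all libraries.

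**Figure D4:**
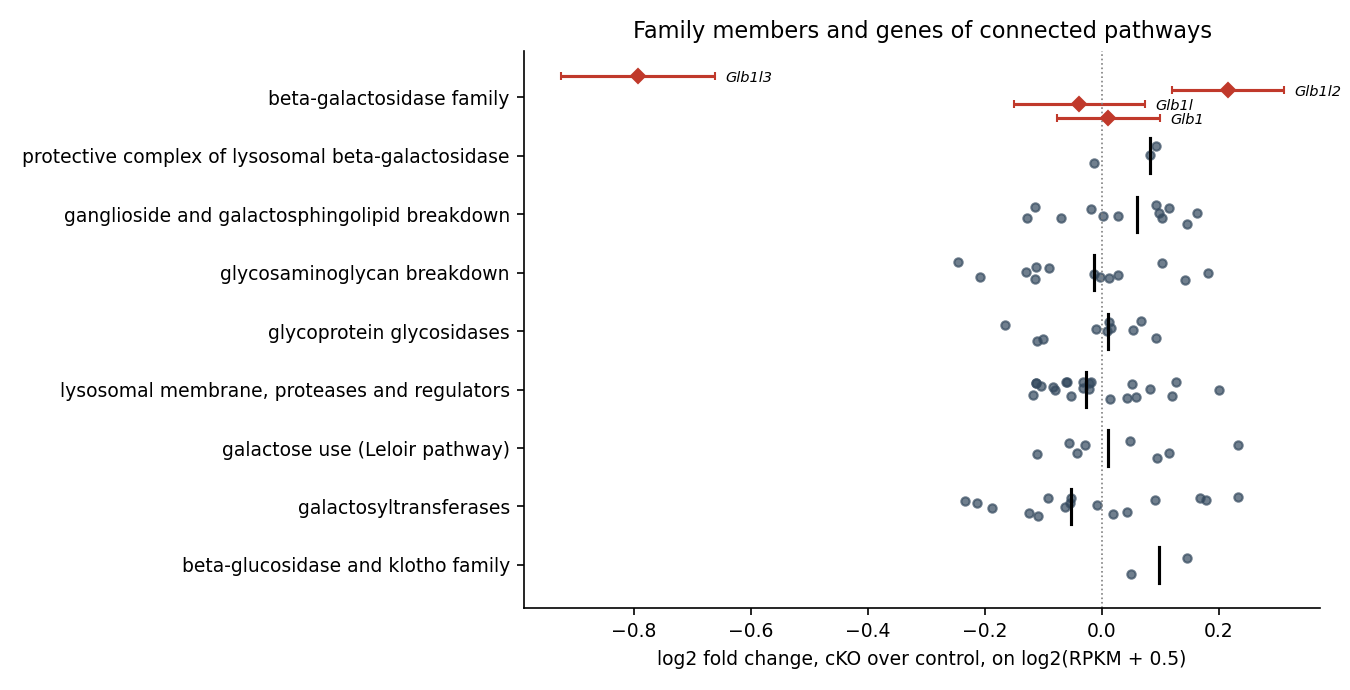
Log2 fold change, cKO over control, on log2(RPKM + 0.5) for the 4 members with their SE (red diamonds, top row) and for the tested genes of each connected list (blue points, bars at the median, family members left out). Glb1l3 at −0.79, picked for its low cKO values, lies outside the range of the list genes, −0.25 to 0.23.

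Markers of the cells that a dissected retina can hold were set beside these values, and their part in the members' values was not tested. Of the 10 rod markers, 4 were higher and 6 lower in cKO retinas by their mean log2 values, and their summed levels, given above, overlapped between groups. The summed level of 6 bipolar cell markers was 313 to 338 RPKM in cKO libraries and 279 to 292 RPKM in control libraries, with no overlap, and 5 of 6 were higher. Pigment epithelium markers (13 in the table) summed to 372 to 467 RPKM in cKO libraries and 354 to 421 RPKM in control libraries, and of the 11 tested 7 were higher and 4 lower in cKO retinas by their mean log2 values. Lens markers varied most, at 116 to 1398 RPKM in cKO libraries and 214 to 1881 RPKM in control libraries, and all 6 were lower in cKO by their mean log2 values. Microglia and macrophage markers summed to 19.3 to 26.2 RPKM in cKO libraries and 23.4 to 25.3 RPKM in control libraries.

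**Figure D5:**
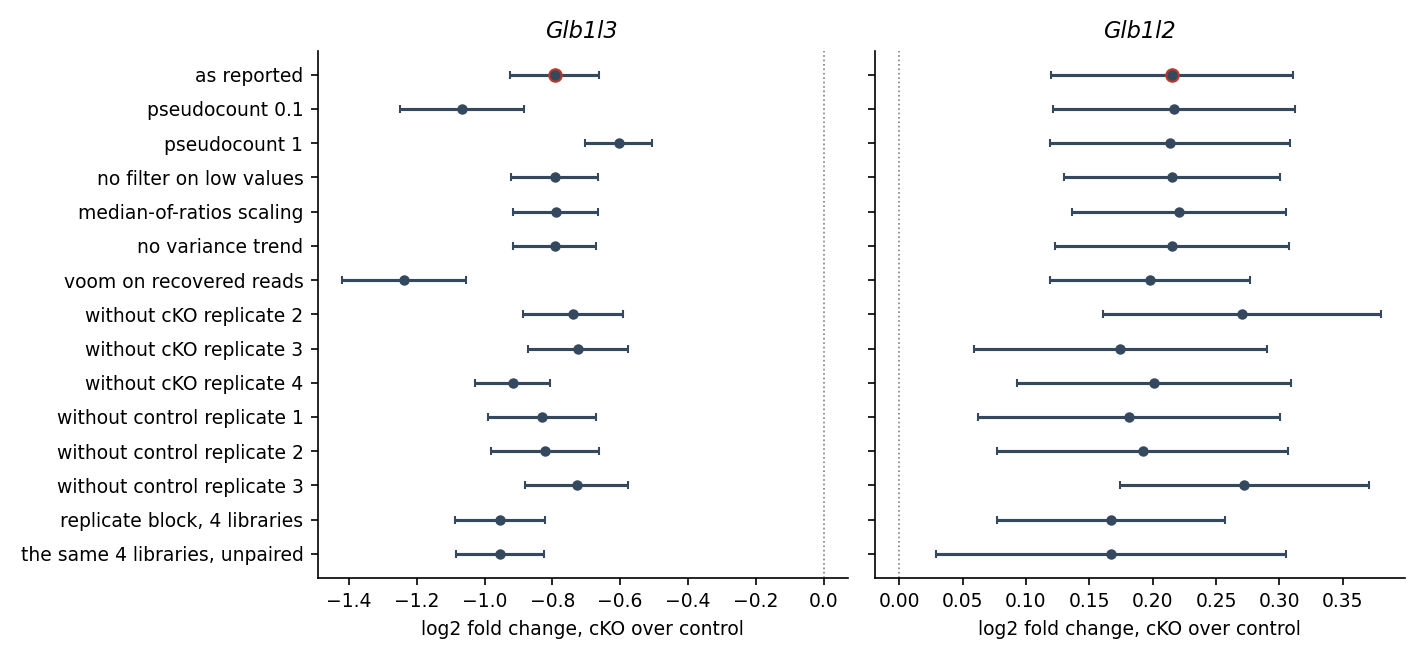
Log2 fold change with its SE for Glb1l3 (left) and Glb1l2 (right), as reported (red) and under each other setting. Glb1l3 stays between −1.24 and −0.60 and Glb1l2 between 0.17 and 0.27, and the libraries left out move Glb1l3 to between −0.92 and −0.72.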

How the data were processed

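Poly(A) RNA of 6 retina libraries was sequenced. The authors deposited a single table of RPKM values, 1 column per library, printed to 5 decimals, and all 6 columns were used. GSNAP, HTSeq and mm9 are named in the submitters' processing notes; for the annotation, the length model and reads with several matches, the sources used here say nothing.

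Whole reads were worked back from the RPKM steps, with annotated lengths setting the scale, for 99.99% of 19140 genes above 0. Any multiple of a library's denominator would also give whole reads, and the smallest was taken. limma 3.58.1 (R 4.3.3) with a variance trend was fitted to log2(RPKM + 0.5) of 12599 genes, those whose mean reached 1 RPKM over all libraries, with Benjamini-Hochberg adjustment over all of them and a threshold of 0.05. The fit and the recovery of reads were tested on simulated data. Members and lists were chosen with earlier results of these data known. In each list the genes named are among the 4 highest by mean RPKM, or at an unadjusted p under 0.05; the nearest 2 annotated genes on each side of a member, where the table has a row for them, and the 5 genes with the highest Pearson r to Glb1l3 were also named. Each replicate is a pool of animals, so p-values measure the spread among pools. Some list genes that the rule would name are not reported here.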

Additional observations from a re-analysis of the deposited data

How the results depend on the processing

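Glb1l3 kept its direction in all 13 alternatives other than the replicate block, with log2 fold changes of −1.24 to −0.60 and adjusted p of 0.0805 to 1.00, and −0.92 to −0.72 with each library left out in turn. With every cKO value of Glb1l3 below every control value, that direction could hardly come out otherwise. Voom on recovered reads gave the −1.24, and a pseudocount of 0.1 gave −1.07 and of 1 gave −0.60. Glb1l2 stayed positive in the same 13, at 0.17 to 0.27. Glb1l and Glb1 changed sign within their error: leaving out 1 library gave −0.097 to 0.063 for Glb1l and −0.022 to 0.074 for Glb1, voom on recovered reads gave −0.0076 for Glb1, and the 4 libraries numbered 2 and 3 gave −0.042 for Glb1 with and without the block. The replicate block on those 4 libraries, which leaves 1 residual degree of freedom, gave −0.95 for Glb1l3 with an adjusted p of 0.0034, and called 86 genes higher and 106 lower; without the block the same libraries gave −0.95 and an adjusted p of 0.639. The numbers are not stated to pair the samples, and deviations of same-numbered libraries correlated at 0.47 for number 2 and −0.052 for number 3. Differently numbered pairs ran from −0.55 (cKO replicate 2 with control replicate 3) to 0.48 (cKO replicate 4 with control replicate 3). Over all genes, 1 was called higher and 0 lower as reported. Median-of-ratios scaling called 3 higher, no variance trend 2, and voom 2 higher and 1 lower, and no filter on low values called 2 lower; the cause was not tested. Of the list genes, 30 to 47 were higher across the alternatives, against 36. For the Leloir list 7 of 8 were higher without control replicate 3, against 4. Glb1l3 rests on 36 to 55 reads in cKO libraries, which limits its precision.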

Other observations

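Among the genes annotated nearest to Glb1, 2 lay below the level required for testing and had cKO values above all control values. Of all tested genes, 5.91% had such values. The share among genes below that level was not worked out, so nothing is read from the count. Trim71, an RNA-binding protein gene known as a target of the microRNA let-7, had 0.267, 0.183 and 0.229 RPKM in cKO replicates 2, 3 and 4, against 0.151, 0.168 and 0.133 RPKM in control replicates 1, 2 and 3, from 18 to 34 reads per library. The groups did not overlap, but the closest values, those of cKO replicate 3 and control replicate 2, rested on 34 reads each. Neither the difference nor a part of let-7 in it was tested. The gene 4930520O04Rik had 0.156 to 0.195 RPKM in cKO libraries and 0.0393 to 0.102 RPKM in control libraries, from 2 to 7 reads per library, and it was not tested either. Ccr4, also beside Glb1, had 1 read in cKO replicate 3 and 0 in the other libraries.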
